A study of Homo sapiens with 4 samples.

Results

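Human melanoma cells of the WM35 line that had been kept for 24 h with C646 were compared with cells kept for 24 h with its solvent. C646 is a cell-permeable compound that blocks p300 and CBP, a pair of histone acetyltransferases. The comparison is a difference on the log2 scale, C646 minus DMSO, taken for every gene-level row of the array whose mean over all arrays reached the 40th percentile of all rows. That limit lay at 3.96, and 16579 of 27631 rows passed it. A single gene symbol named 10707 genes among them. Just below the limit, 3 rows had differences of -0.02, 0.06 and -0.29, and the 3 rows just above it had -0.07, 0.43 and 0.06.

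WM35 was derived from a radial growth phase melanoma, the stage before vertical invasion. The groups were C646 at 20 µM and DMSO at 0.2%, each taken after 6 h and after 24 h, and all were cultures of this line in serum-containing medium. Each of the 4 groups was measured on 1 Affymetrix exon array, so no difference below has a replicate check and none has a p-value. The DMSO array of 24 h minus the DMSO array of 6 h, in which no inhibitor took part, serves as the noise scale, and it shares the DMSO array of 24 h with the comparison.

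p300 and CBP place acetyl groups on histone tails at enhancers and promoters and also on transcription factors, and many factors recruit them to switch genes on. A dividing cell passes from G1 through DNA replication to mitosis, and each step has its own wave of transcripts: E2F factors drive the genes of replication, and the MuvB complexes with B-MYB and FOXM1 drive those of mitosis. The tumour suppressor p53 opposes this programme, since its targets include an inhibitor of cyclin-dependent kinases. In melanocytes and melanomas MITF is the central lineage factor and controls pigment genes.

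After 24 h the C646 array held many lower transcripts of the dividing cell, and fewer and smaller differences in the other direction. Of the 16579 rows, 414 were at least 2-fold lower (2.5%) and 189 at least 2-fold higher (1.14%). At 4-fold the counts were 109 lower and 13 higher. Between both DMSO arrays only 24 rows lay 2-fold apart in either direction, 0.145% of all. The differences had an SD of 0.442, against 0.173 for the DMSO pair and 0.216 for C646 against DMSO at 6 h, and 1512 rows exceeded the 99th percentile of the DMSO pair's absolute differences, 0.63.

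**Figure D1:**
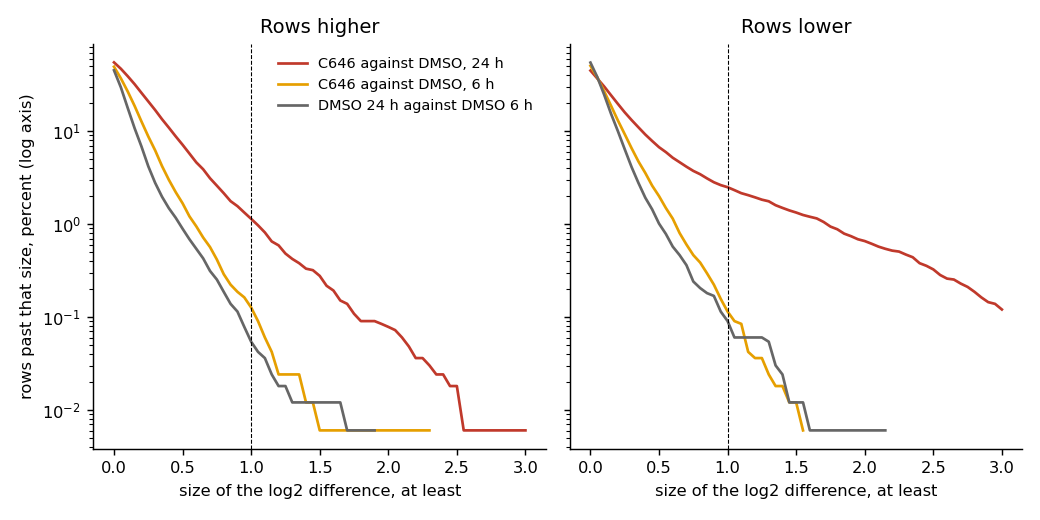
Percent of the 16579 rows (log axis) whose log2 difference reached at least the size on the x axis, for rows that were higher on the left and lower on the right. At the dashed line, a 2-fold difference, the 24 h comparison held 1.14% higher and 2.5% lower rows, and its lower side extends far beyond the C646 comparison at 6 h and the DMSO pair.

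The lower rows depended little on which solvent array they were set against, and the higher rows depended on it more. Of the 414 lower rows, 385 (93%) were also at least 2-fold below the DMSO array of 6 h, and 332 (80.2%) lay 2-fold below that array and the C646 array of 6 h. Of the 189 higher rows, 110 (58.2%) were also 2-fold above DMSO at 6 h, and 56 (29.6%) also above C646 at 6 h. Among the higher rows, 132 (69.8%) read lower with DMSO at 24 h than at 6 h, against 54.8% of all rows. With C646, 48 of the lower rows (11.6%) read below the level limit, and 18 of the higher rows (9.52%) read below it with DMSO at 24 h. The size of such a difference is not well determined.

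Over named genes, 303 were at least 2-fold lower (2.83%) and 102 at least 2-fold higher (0.953%). A second limit used below is the 99th percentile of the DMSO pair's absolute differences among rows of like mean level, in 10 bins of equal size, which ran from 0.52 to 0.75. By that limit 574 named genes were lower (5.36%) and 425 higher (3.97%). The median over all named genes was 0.03, with 5951 of the 10707 above 0 and 4756 below it. Of the 303 lower genes, 177 belonged to lists of the cell cycle, histones or DNA repair. Of the 102 higher genes, 13 were on the list of p53 targets and 25 on any list. The shares of all named genes, 2.83% lower and 0.953% higher, stand beside every 2-fold count on a list below. The lists were chosen with earlier results of these data known, so their counts only describe these data.

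**Figure D2:**
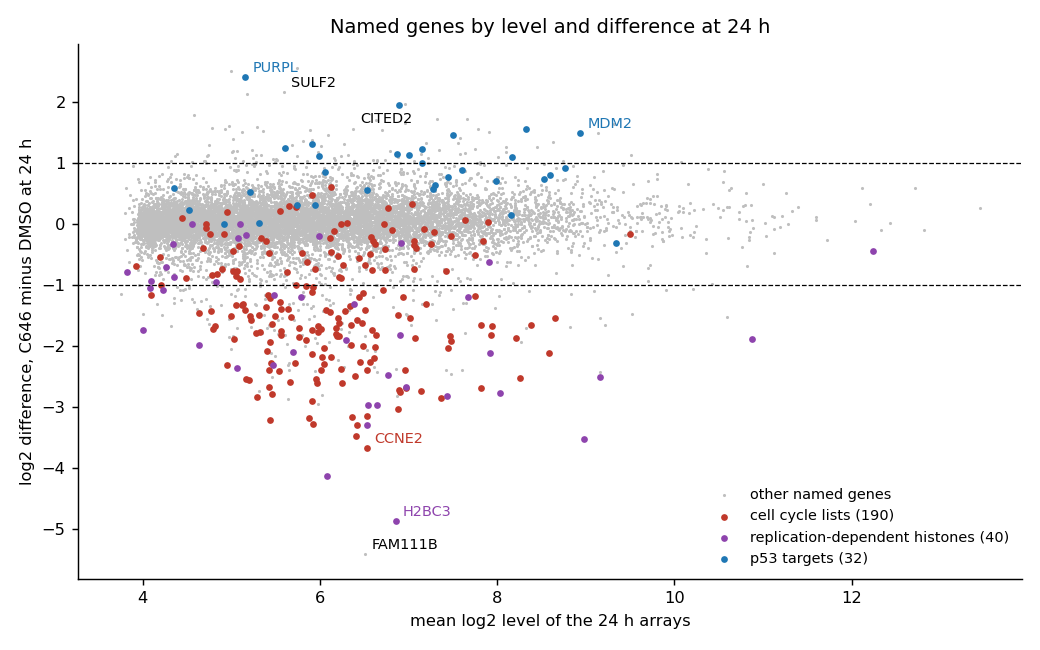
Each point is a named gene, with its mean log2 level on the 24 h arrays on the x axis and its log2 difference, C646 minus DMSO, on the y axis; dashed lines mark 2-fold. Cell cycle genes (red, 190) and replication-dependent histones (purple, 40) lie mostly below the lower line, p53 targets (blue, 32) mostly above 0, and FAM111B is the lowest gene at -5.41.

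The lowest named gene was FAM111B, which encodes a serine protease. It read 9.45 with DMSO and 9.47 with C646 at 6 h, then 9.21 with DMSO and 3.80 with C646 at 24 h. The C646 array of 24 h stood alone, with the other 3 arrays close together, and the difference was -5.41. Its C646 level lay below the level limit, so the size is not well determined. Among genes named below, the same holds for CDC25A, CLSPN, ORC1, ORC6, MCM10, CDC7, POLE2, NDC80, E2F2, BRCA1, POLQ and BCL2. In RNA from a whole culture, as here and in all that follows, fewer cells in a phase of the cycle and less RNA per cell cannot be told apart.

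Replication genes were lower from the assembly of origins to the synthesis of deoxynucleotides. Of 78 measured genes on 4 replication lists, 37 were at least 2-fold lower, against 2.83% of all named genes, and their median was -0.87. None was 2-fold higher, where only 0.953% of all named genes were. The same lists had a median of -0.04 at 6 h and drifted by -0.13 between both DMSO arrays. In origin licensing, where the MCM helicase is loaded onto DNA, 10 of 17 measured genes were 2-fold lower, with a median of -1.46. CDC6, a loader of the helicase, read 8.50 and 8.26 with DMSO at 6 h and 24 h, 8.48 with C646 at 6 h and 5.54 with C646 at 24 h. Only the last array was low, and the 24 h difference was -2.72. The MCM subunits with a value were at -2.68 for MCM4, -1.90 for MCM6, -1.83 for MCM3, -1.79 for MCM2 and -1.68 for MCM5. GMNN, which encodes the licensing inhibitor geminin, was at -1.21. The origin recognition complex did not move as a unit. ORC1, the subunit made anew in each cycle, was at -2.30 and ORC6 at -1.46, whereas ORC2 (0.29), ORC3 (-0.22), ORC4 (0.21) and ORC5 (-0.11) lay inside the DMSO pair's limit. The probe set of ORC6 is the one numbered on its own chromosome, and with another of its probe sets the value is 0.15.

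At the next step, in which the loaded helicase is switched on, 12 of 19 genes were 2-fold lower and 17 lay past the DMSO pair's limit, with a median of -1.51. TICRR, the vertebrate partner of TOPBP1 in helicase activation, read 8.17 and 8.14 with DMSO, 7.79 with C646 at 6 h and 4.66 at 24 h, a difference of -3.48. MCM10 was at -2.54 and CDC45, part of the active helicase, at -2.39, and the GINS genes with the largest differences, GINS1, GINS2 and GINS3, were at -1.80, -1.71 and -1.57. CLSPN, which encodes claspin, a protein that links stalled forks to the kinase CHEK1, read 6.98 and 6.71 with DMSO, 6.55 with C646 at 6 h and 3.87 at 24 h. Its 24 h difference was -2.84. DBF4, the activator of the CDC7 kinase, was at -1.83, and CDC7 itself was at -0.53.

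Among polymerase, primase and clamp loader genes, 11 of 23 were 2-fold lower, with a median of -0.82. The catalytic subunit gene POLE was at -1.40 and its partner POLE2 at -1.72, while the histone-fold subunits POLE3 and POLE4, which also serve in other complexes, were at -0.40 and -0.07. POLD4 was the only member above 0 that passed the DMSO pair's limit, at 0.60. FEN1, a nuclease that trims Okazaki fragments, was at -1.82, on a probe set numbered on another chromosome. In nucleotide and folate synthesis 4 of 19 genes were 2-fold lower, and all 4 lead to deoxynucleotides. They were the ribonucleotide reductase genes RRM2 (-1.83) and RRM1 (-1.70), the thymidine kinase gene TK1 (-1.24) and the thymidylate synthase gene TYMS (7.13 with DMSO and 6.13 with C646). The list's median was -0.68, with 17 of 19 below 0 and 11 past the DMSO pair's limit, among them the folate enzyme gene MTHFD2 at -0.94. CAD, of pyrimidine synthesis, was at -0.27, IMPDH2 at -0.17, UMPS at 0.01 and ATIC at 0.08.

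Cyclins A, B and E and the kinases they activate had a median of -1.51, with 10 of 14 genes 2-fold lower. CCNE2, a cyclin of the entry into S phase, read 8.50 and 8.36 with DMSO, 8.26 with C646 at 6 h and 4.69 with C646 at 24 h. The difference of -3.67 rests on the last array, which stood apart from the other 3. CCNE1, the other E-type cyclin, was at -1.53. CDC25A, a phosphatase that removes inhibitory phosphate from these kinases, was at -3.22, CCNA2 at -2.86, CCNB2 at -1.91 and CCNB1 at -1.86. The kinases diverged: CDK1 went from 6.97 with DMSO to 4.85 with C646 at 24 h, a difference of -2.13, and CDK2 read 9.59 and 9.42, a difference of -0.17. The D-type cyclins and RB genes of G1 did not follow. Their list of 9 had a median of 0.06, with CCND1 at 0.45, CCND3 at -0.32, CDK6 at 0.17 and RB1 at 0.01. Its only member at least 2-fold lower was RBL1, which encodes the RB relative p107, at -1.71.

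The transcription factors of the cycle also divided into lower and level members. E2F8 and E2F7, the atypical E2F repressors, were at -3.28 and -1.65, and the activators E2F1 and E2F2 at -1.57 and -1.01. E2F3 was at -0.48, and E2F4 and E2F5, which act with RB relatives in resting cells, were at 0.00 and 0.47. In the MuvB group the partner genes MYBL2 (B-MYB), FOXM1 and MYBL1 were at -1.87, -1.08 and -0.88. The core subunits were spread, with LIN9 at -1.51, LIN54 at -0.78, RBBP4 at -0.28 and LIN52 at -0.17.

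Over 6 mitotic lists, 69 of 87 measured genes were at least 2-fold lower, against 2.83% of all named genes, and 35 were at least 4-fold lower. Their median was -1.75, after -0.27 at 6 h and with a drift of -0.20 between both DMSO arrays. Set against DMSO at 6 h instead, all 69 stayed at least 2-fold lower. The 10 mitotic kinesins, motors that build and move the spindle, had the lowest list median, -2.50, and all 10 were 2-fold lower. KIF14 read 8.28 and 7.94 with DMSO, 7.56 with C646 at 6 h and 4.78 at 24 h, a difference of -3.15. KIFC1 was at -3.17, KIF11, the motor that separates spindle poles, at -2.76, and KIF22 had the smallest difference at -1.41.

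All 16 mitotic kinase and chromosomal passenger genes were 2-fold lower, with a median of -1.76. CDCA8, which encodes borealin of the passenger complex, read 8.18 and 8.06 with DMSO, 7.74 with C646 at 6 h and 4.77 at 24 h, a difference of -3.29. Its partners AURKB, BIRC5 (survivin) and INCENP were at -1.75, -1.33 and -1.03. AURKA was at -2.11, PLK1 at -1.66, and SGO1, the protector of centromeric cohesion, at -3.03. All 13 genes of cytokinesis and the spindle midzone were 2-fold lower, with a median of -1.94, from ASPM at -2.90 to ECT2 at -1.31.

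Of 22 kinetochore and centromere genes 18 were 2-fold lower, with a median of -1.63. SKA1, a coupler of kinetochores to microtubules, was at -3.15, NDC80 at -2.55 and the centromeric histone gene CENPA at -1.62. The MIS12 complex genes NSL1 (-0.23) and MIS12 (-0.08) lay inside the DMSO pair's limit, while DSN1 of the same complex was at -1.18. In the list of the spindle checkpoint and the anaphase-promoting complex (APC/C), the checkpoint genes TTK, BUB1 and MAD2L1 were at -2.60, -2.26 and -1.51 and the APC/C activator CDC20 at -1.67, while the checkpoint gene MAD1L1 was at -0.01. Of the ligase's core subunits, ANAPC1 was at -0.14, ANAPC5 at 0.00, ANAPC4 at 0.10 and CDC16 at 0.32. That list had 7 of 19 genes 2-fold lower and a median of -0.36.

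Chromosome structure genes showed the same kind of split. The topoisomerase gene TOP2A, expressed in dividing cells, read 8.80 and 8.50 with DMSO, 8.21 with C646 at 6 h and 5.77 at 24 h, a difference of -2.73. TOP2B, its paralogue, was at 0.03. The condensin genes NCAPH and SMC2 were at -2.49 and -1.73. In the cohesin list 3 of 13 genes were 2-fold lower. These were CDCA5 (sororin, -2.78), the acetyltransferase gene ESCO2 (-1.85) and SMC1A (-1.53), whereas ESCO1, STAG2 and NIPBL were at -0.09, -0.22 and 0.02.

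**Figure D3:**
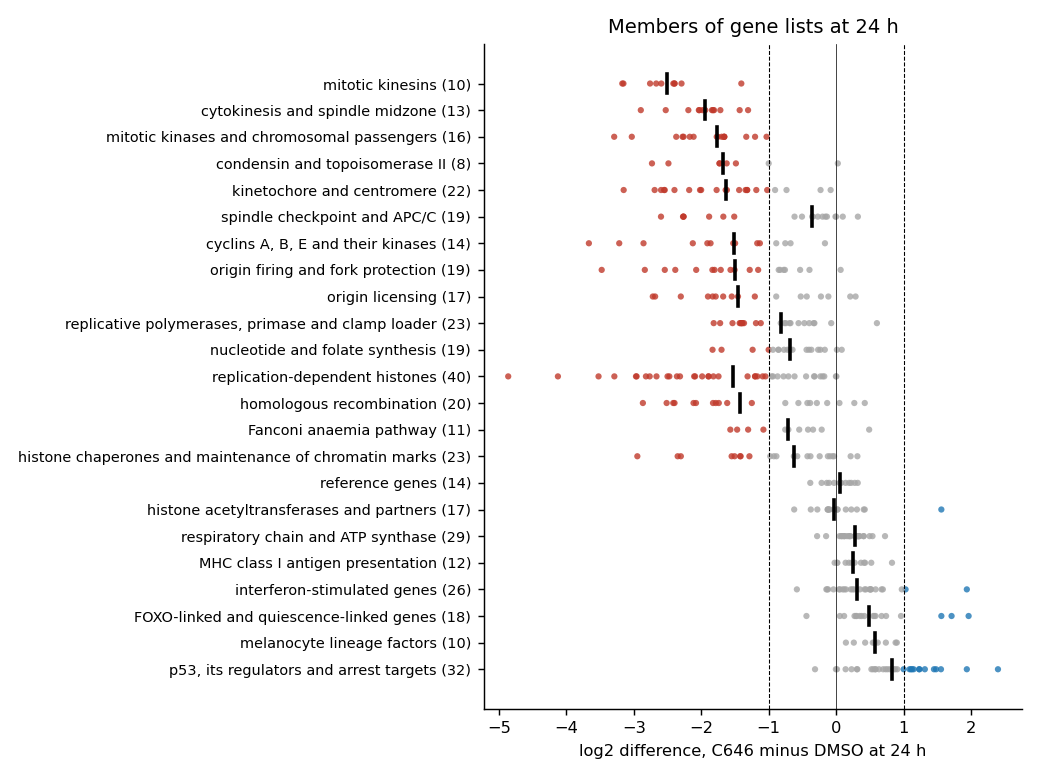
Log2 difference, C646 minus DMSO at 24 h, of every measured member of 23 lists, with the number measured in brackets, the black bar as the median and dashed lines at 2-fold. All 10 mitotic kinesins, 13 midzone genes and 16 mitotic kinase genes lie at or beyond the lower line, reference genes lie between -0.38 and 0.32, and p53 targets form the highest list.

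Histone genes whose transcripts are made during DNA replication were lower, with 26 of 40 measured genes at least 2-fold lower, 15 of them 4-fold, and a median of -1.53. H2BC3 read 9.36 and 9.29 with DMSO, 8.10 with C646 at 6 h and 4.42 with C646 at 24 h, so it was already lower at 6 h (-1.26) and at -4.86 at 24 h. H3C12 followed at -4.13, H2BC14 at -3.52 and the linker histone gene H1-5 at -3.29. At the other end H4C8 and H2BC5 were at 0.00, on levels of 5.09 and 4.55 with C646. H3C2 differed in its course, with 8.10 and 8.84 for DMSO, 9.10 for C646 at 6 h and 6.02 for C646 at 24 h. Histone genes are near-identical copies whose probes can cross-hybridise, and the value of any individual copy is therefore uncertain. Of 7 histone variant genes listed as replication-independent, 1 was 2-fold lower: H2AX, the variant phosphorylated at DNA breaks, at -1.36. Chromosome 6 carries the largest histone cluster. Of 540 named genes on chromosome 6, 7.04% were 2-fold lower, and 2.59% of 502 when the 38 listed histones there were left out.

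Factors that place histones and copy chromatin marks behind the fork had a median of -0.63, with 8 of 23 genes 2-fold lower. UHRF1, which brings the maintenance DNA methyltransferase to hemimethylated DNA, was at -2.95, ATAD2 at -2.35, the remodeller gene HELLS at -2.30, the chromatin assembly genes CHAF1A and CHAF1B at -1.55 and -1.51, and EZH2 at -1.42. The de novo methyltransferase gene DNMT3A was at -0.03 and the Polycomb gene EED at -0.05. Nuclear envelope and HMG genes held a comparable pair of patterns. HMGB2 went from 8.62 with DMSO to 6.23 with C646 at 24 h, a difference of -2.40, and LMNB2, TMPO and LBR were at -1.08, -1.55 and -1.35. HMGB1 and LMNA were at -0.23 and 0.03. The difference of HMGB1 depended on the probe set, with -0.53 for the brightest of all its probe sets.

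Among repair genes the recombination list had the lowest median. Homologous recombination, which copies from the sister chromatid, had 11 of 20 genes 2-fold lower and a median of -1.43. EXO1, a nuclease gene, read 6.80 and 6.71 with DMSO at 6 h and 24 h, 6.73 with C646 at 6 h and 4.20 with C646 at 24 h, a difference of -2.51. XRCC2 was at -2.42, the helicase gene BLM at -2.40, BRIP1 at -2.08, BARD1 at -1.78 and BRCA1 at -1.25. MUS81 and PALB2 were at 0.05 and -0.13. In the Fanconi anaemia pathway, which unlinks crosslinked strands, 4 of 11 genes were 2-fold lower (FANCG, FANCI, FANCB and FANCE, from -1.57 to -1.08). Of the non-homologous end joining and mismatch repair genes, 2 of 12 were 2-fold lower, EXO1 and the polymerase gene POLQ (-1.29). Of the end-joining genes, PRKDC was at -0.91, past the DMSO pair's limit, and DCLRE1C, XRCC4, XRCC6 and LIG4 were at -0.41, -0.20, 0.03 and 0.32. In the damage checkpoint CHEK1 was at -1.31, while ATR and ATM were at 0.16 and -0.03, the latter on a probe set numbered on another chromosome.

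Of the enzymes that C646 inhibits, CBP had a level transcript. CREBBP, which encodes CBP, read 6.64 and 6.75 with DMSO and 6.53 and 6.76 with C646 at 6 h and 24 h, a 24 h difference of 0.02. EP300 has no probe set that names it alone. Among 17 acetyltransferases and partners the median was -0.03, with KAT2B at 0.41, KAT2A at 0.31 and KAT6A at -0.28. The only member 2-fold higher was CITED2, which encodes a protein that binds the CH1 domain of p300 and CBP and competes with HIF1A for it. CITED2 read 5.26 and 5.59 with DMSO, 5.84 with C646 at 6 h and 7.15 with C646 at 24 h. Its C646 values lay above the DMSO value of the same time at 6 h (0.58) and at 24 h (1.56). None of 21 bromodomain and deacetylase genes was 2-fold different. All 21 lay inside the DMSO pair's limit, as did 9708 of all 10707 named genes.

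**Figure D4:**
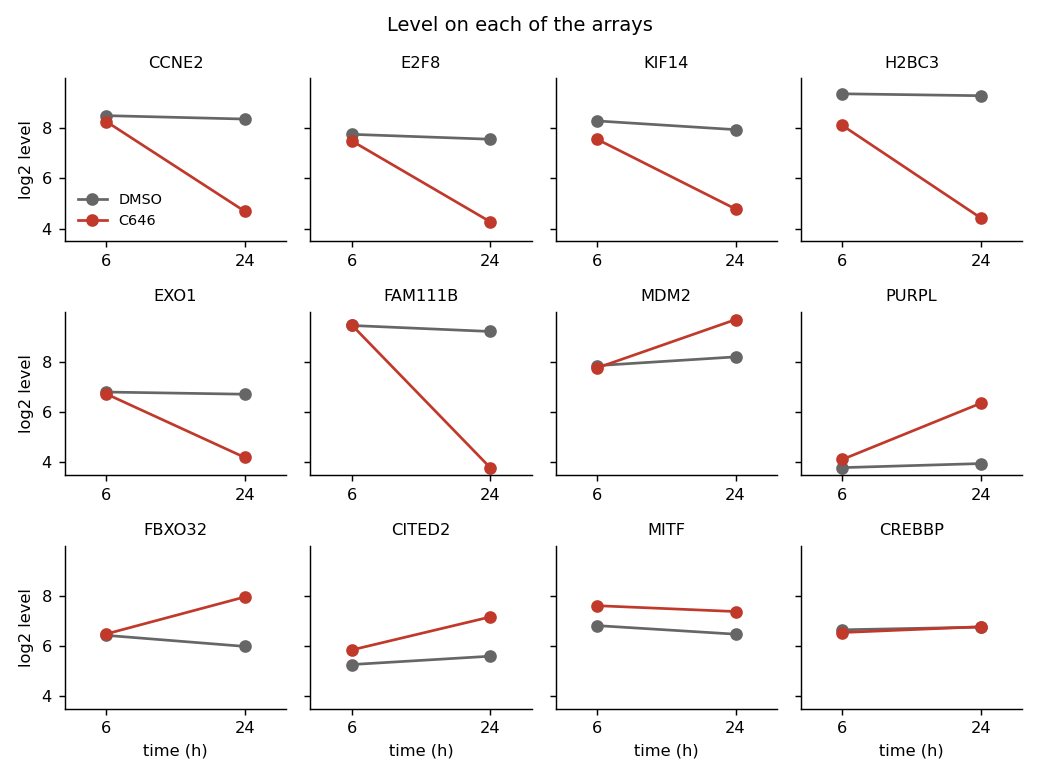
Log2 level of 12 genes on each of the 4 arrays against time in hours, with DMSO in grey and C646 in red; each point is 1 array, and lines only join the arrays of a treatment. CCNE2, E2F8, KIF14, H2BC3, EXO1 and FAM111B are low on the C646 array of 24 h alone or mainly there, MDM2, PURPL, FBXO32 and CITED2 are highest on it, MITF is higher with C646 at both times, and CREBBP is level.

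Promoters were searched for short motifs, since many of the lower genes are known targets of factors with defined sites. Promoter sequences, from 250 bases before to 50 after the start, were available for 8660 of the named genes from RefSeq (GRCh38.p14). The cell cycle genes homology region (CHR, TTTGAA) is a site of MuvB complexes. The CCAAT box (CCAAT) is a site of the factor NF-Y, and TTTNNCGC is a core of E2F sites. All were read on both strands. The sequences shown run from 120 bases before to 30 after the start of cell cycle genes with large lower differences. They are examples that hold a CHR or an E2F match, 3 of each, and not a full ranking. CCNE2, the lowest cell cycle gene at -3.67, is not among them. Capitals mark every match to these motifs.

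CDCA8, chr1:37692396-37692545, plus strand, holds a CHR match from position -23, which shares a base with a CCAAT box at -18. KIFC1, chr6:33391703-33391852, plus strand, holds CHR from position 5. KIF14, chr1:200620722-200620871, minus strand, holds CHR from position 2 and a CCAAT box at -22.
CDCA8: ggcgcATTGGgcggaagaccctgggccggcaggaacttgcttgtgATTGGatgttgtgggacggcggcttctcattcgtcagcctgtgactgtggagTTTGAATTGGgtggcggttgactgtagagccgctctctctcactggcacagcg
KIFC1: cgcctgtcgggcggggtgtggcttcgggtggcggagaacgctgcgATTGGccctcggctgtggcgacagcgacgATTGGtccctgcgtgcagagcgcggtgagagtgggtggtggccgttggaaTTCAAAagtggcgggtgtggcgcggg
KIF14: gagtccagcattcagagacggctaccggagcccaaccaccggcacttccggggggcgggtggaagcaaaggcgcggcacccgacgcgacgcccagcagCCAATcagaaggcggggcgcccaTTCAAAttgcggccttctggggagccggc

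CDC25A, chr3:48188388-48188537, minus strand, holds an E2F match from position -44. SGO1, chr3:20186177-20186326, minus strand, holds an E2F match from -12. CLSPN, chr1:35769949-35770098, minus strand, holds an E2F match from -5 and 3 CCAAT boxes.
CDC25A: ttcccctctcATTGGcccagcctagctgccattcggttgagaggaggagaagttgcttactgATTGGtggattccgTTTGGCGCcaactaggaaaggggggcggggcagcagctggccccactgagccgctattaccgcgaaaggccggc
SGO1: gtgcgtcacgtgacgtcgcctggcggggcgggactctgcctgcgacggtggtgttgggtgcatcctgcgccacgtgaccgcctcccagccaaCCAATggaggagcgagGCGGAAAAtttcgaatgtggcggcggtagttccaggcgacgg
CLSPN: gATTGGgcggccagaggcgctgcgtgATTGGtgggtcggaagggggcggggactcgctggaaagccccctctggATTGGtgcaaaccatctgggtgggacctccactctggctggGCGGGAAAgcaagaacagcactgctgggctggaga

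The share of promoters with CHR was larger the lower the gene. It was 8.78% among genes within 0.5 of 0, 13.4% between -1 and -0.5, 23.6% among genes 2-fold to 4-fold lower and 47.2% among 72 genes at least 4-fold lower, against 9.64% of all 8660. CCAAT boxes ran from 35.5% to 75% over the same classes, against 36.5% of all. E2F matches were in 9.96%, 14%, 25.8% and 27.8%, against 10.5% of all. Genes at least 2-fold higher had CHR in 11 of 79 promoters (13.9%), CCAAT in 39.2% and E2F in 8.86%.

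Motif shares differed between the lists of mitosis and replication. CHR was in 41 of 73 promoters of the mitotic lists (56.2%) and in 3 of 67 of the replication lists (4.48%). E2F matches were in 25 of 67 replication promoters (37.3%) and 13 of 73 mitotic ones (17.8%). Histone promoters held a CCAAT box in 31 of 35 cases (88.6%). Within the mitotic lists, the 30 genes with both CHR and a CCAAT box were all at least 2-fold lower, with a median of -2.03. Of the other 43 genes, 28 (65.1%) were, with a median of -1.62. With CHR 39 of 41 were 2-fold lower, and without it 19 of 32. For the CCAAT box the counts were 41 of 49 and 17 of 24, with a median of -1.77 on both sides. E2F went the other way, with 8 of 13 (61.5%) and 50 of 60 (83.3%). A GC box (GGGCGG) was in 69.7% of the 2-fold lower genes and 70.4% of all, an E-box (CACGTG) in 7.87% and 10.4%, an M-box (TCANNTGA) in 6.3% and 6.03%, and the NRF1 site in 2.76% and 2.29%. A CRE (TGACGTCA) was in 5.51% and 3.27%, and in 10 of the 72 promoters of genes at least 4-fold lower (13.9%). The AP-1 site (TGANTCA) was in 1.57% of the lower genes, 7.59% of the higher ones and 4.28% of all. A match is only the presence of these letters, and no binding was measured.

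**Figure D5:**
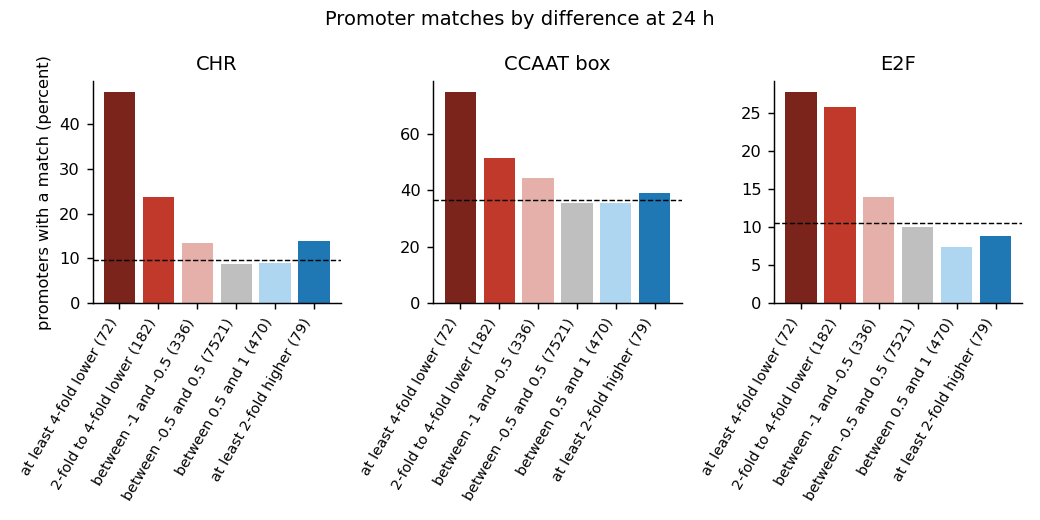
Percent of promoters with at least 1 match to CHR, the CCAAT box and E2F, for genes grouped by their log2 difference at 24 h, with the number of genes in brackets and a dashed line at the share of all 8660 promoters; the y axes differ in range. CHR reaches 47.2% and the CCAAT box 75% among genes at least 4-fold lower, and the remaining groups lie closer to the line.

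Targets and regulators of p53 were the list with the highest median, 0.83 over 32 measured genes. Of these, 30 lay above 0, against 5951 of all 10707 named genes. At least 2-fold higher were 13, against 0.953% of all named genes, and 19 passed the DMSO pair's limit, against 3.97%. All 13 were also 2-fold above DMSO at 6 h. The p53 list was chosen with earlier results of these data known, so its shares are description only. The list drifted by 0.16 between both DMSO arrays and had a median of -0.01 at 6 h. MDM2, the ubiquitin ligase of p53 and itself a target, read 7.85 and 8.20 with DMSO, 7.76 with C646 at 6 h and 9.68 at 24 h, a difference of 1.48. The C646 array of 24 h was the highest. PURPL, a long noncoding RNA that p53 induces, read 3.79 and 3.96 with DMSO, 4.12 with C646 at 6 h and 6.36 with C646 at 24 h. The mean of its first 3 arrays lay below the level limit, so PURPL passed the filter only through the array where it was high, and its difference of 2.40 has no well-measured control level. The same holds for SESN1, so 2 of the 32 members passed in this way, against 78 of all 10707 named genes.

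Members with a role in cell death were among the 13. They were EDA2R, a receptor of the TNF receptor family (1.55), FAS (1.23), TP53INP1 (1.11) and BAX (1.00). PHLDA3, an inhibitor of AKT, was at 1.45, TP53I3 at 1.32, CYFIP2 at 1.24, TRIAP1 at 1.15 and RPS27L at 1.09. PTCHD4 was at 1.13, and here the DMSO arrays themselves differed, with 4.75 at 6 h and 6.44 at 24 h. CDKN1A, which encodes the kinase inhibitor p21, read 5.43 and 5.63 with DMSO, 5.27 with C646 at 6 h and 6.48 at 24 h, a difference of 0.85. Not every target was higher. PMAIP1 (NOXA) was at -0.31, and PERP, MDM4 and POLH were at 0.00, 0.01 and 0.14. Of other genes in the list of kinase inhibitors, CDKN3 was at -0.85, past the DMSO pair's limit, CDKN1B at -0.32, CDKN2D at -0.15 and CDKN1C at 0.08. Among 21 apoptosis regulators none was 2-fold different, and neither were 10302 of all 10707 named genes. The median of these regulators was 0.14, with CASP9 at 0.64, BCL2L1 at 0.42, BCL2 at -0.33 and APAF1 at -0.67.

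Genes linked to FOXO factors and quiescence had a median of 0.48, with 17 of 18 above 0, against 5951 of all 10707 named genes. At least 2-fold higher were 3, against 0.953% of all named genes, and 5 passed the DMSO pair's limit, against 3.97%. This list too was chosen with earlier results of these data known, so its shares are description only. SESN1, 1 of the 18, passed the level filter only through the array where it was high. The list's drift between both DMSO arrays was 0.20. FBXO32 (atrogin-1), a ubiquitin ligase gene induced by FOXO, read 6.42 and 5.98 with DMSO, 6.48 with C646 at 6 h and 7.95 with C646 at 24 h. The difference was 1.96 against the 24 h control and 1.53 against DMSO at 6 h. YPEL2 was at 1.71 and its relative YPEL3 at 0.74, CITED2 at 1.56 and the arrestin-domain gene ARRDC3 at 0.96, while ARRDC4 was at -0.44.

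The highest named genes outside these lists were of mixed function. PRSS35, a serine protease-like gene, read 4.04 and 3.74 with DMSO, 4.31 with C646 at 6 h and 6.25 at 24 h, a difference of 2.51 from a DMSO reading below the level limit. SULF2, an extracellular sulfatase that edits heparan sulfate, read 4.41 and 4.51 with DMSO, 4.35 with C646 at 6 h and 6.67 at 24 h, and was at 2.16. In both genes the C646 array of 24 h was high and the other 3 were low. DNAI3 was at 2.12, the Wnt antagonist gene DKK1 at 1.72, the cytokine gene IL16 at 1.71, CEMIP, a hyaluronan-degrading protein gene, at 1.65, the polo-like kinase gene PLK2 at 1.64 and HOXB3 at 1.59. Another probe set of HOXB3 was at 0.31. Of the named genes at least 2-fold different, 7 had another probe set numbered on their own chromosome; all 7 had the same sign there and 3 were 2-fold different. IL16 and CEMIP were higher with C646 at 6 h too, by 0.76 and 0.95.

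Some of the highest values stood beside a low reading on the DMSO array of 24 h. ZNRD2-DT, the highest named gene at 2.55, read 5.89 with DMSO at 6 h and 4.47 at 24 h, and its C646 value of 7.02 lay 1.13 above DMSO at 6 h. SETDB2 was at 1.77 and 0.94 by the same pair of controls, and another of its probe sets was at 0.42 at 24 h. EGR3, an early growth response gene at 1.51, read 8.17 with DMSO at 6 h and 7.15 at 24 h, and was 0.49 above the former. GAS5, at 1.60, depended on the probe set, with 0.11 for the brightest of all its probe sets. The highest row of all, at 3.52, carries no gene symbol.

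Melanocyte lineage factors all lay above 0, with a median of 0.57 over 10 genes, against 0.03 for all named genes. Of all 10707 named genes, 5951 lay above 0. No lineage factor reached 2-fold, and 2 passed the DMSO pair's limit, against 3.97% of all named genes on the higher side. MITF read 6.81 and 6.47 with DMSO, 7.60 with C646 at 6 h and 7.37 at 24 h, so both C646 values lay above both DMSO values, by 0.79 at 6 h and 0.90 at 24 h. IRF4, a pigment-cell factor that acts with MITF, read 6.26 and 6.16 with DMSO and 7.12 and 7.04 with C646, a 24 h difference of 0.88. SOX10, which drives MITF, was at 0.74, the endothelin receptor gene EDNRB at 0.62, LEF1 at 0.58 and PAX3 at 0.26. The drift of the list between both DMSO arrays was -0.10.

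Genes of the pigment organelle moved less than the factors. Their median was 0.15 over 15 genes, with PMEL at 0.08, TYRP1 at 0.15, MLANA at 0.40, MYO5A at -0.06 and SLC45A2 at -0.05. The 2 members at least 2-fold higher were S100B, a calcium-binding protein used as a melanoma marker, and MCOLN3, a cation channel gene. S100B read 8.77 and 8.39 with DMSO and 9.38 and 9.88 with C646, a 24 h difference of 1.49. Other reported targets of MITF had a median of 0.15, with PPARGC1A at 1.08, TBX2 at 0.85, LGALS3 at 0.77 and HIF1A at 0.61, whereas DIAPH1 was at -0.87 and CDK2 at -0.17. PPARGC1A, the coactivator of mitochondrial genes, read 4.46 and 4.50 with DMSO and 5.82 and 5.58 with C646. Its values with C646 were higher at both times.

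Markers of the labelled cell type were present. All 6 melanocyte markers with a probe set lay above the level limit on the mean of the arrays. Leukocyte markers were above it in 0 of 6 cases, fibroblast markers in 3 of 7, keratinocyte markers in 3 of 6 and endothelial markers in 2 of 8. The summed linear level of the leukocyte markers ran from 67.2 to 69.9 over the arrays, that of the fibroblast markers from 157 to 168 and that of the keratinocyte markers from 141 to 148. PTPRC and the other leukocyte markers, COL1A2, COL3A1, DCN and THY1 of fibroblasts, KRT14, KRT1 and DSG3 of keratinocytes, and PECAM1, CDH5, VWF, TEK, EMCN and ERG of endothelium lay below the limit on that mean. COL1A1, LUM, FAP, KRT10, SFN, IVL, KDR and CLDN5 lay above it. The endothelial sum was 366 and 289 with DMSO and 486 and 414 with C646 at 6 h and 24 h, and most of it was KDR, a VEGF receptor gene, at 7.66 with DMSO and 8.35 with C646 at 24 h; its part in the other results was not tested.

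Interferon-stimulated genes had a median of 0.31 over 26 genes, with 21 above 0, against 5951 of all 10707 named genes. On the higher side 5 passed the DMSO pair's limit, against 3.97% of all named genes. On the lower side none did, against 5.36%. TRIM22, which is on the p53 list as well, read 5.27 and 5.93 with DMSO, 5.53 with C646 at 6 h and 7.87 at 24 h, a difference of 1.94. OAS2 was at 1.03, SAMD9L at 0.97 and IRF9 at 0.69. The neighbouring family member OAS3 was at -0.58, and ISG15, IRF1 and MX2 were at -0.12, -0.04 and -0.13. MHC class I presentation genes lay above 0 in 11 of 12 cases, against 5951 of all 10707 named genes, with a median of 0.25. TAP1, a peptide transporter gene, alone passed the DMSO pair's limit at 0.83. TAPBP was at 0.52, HLA-E at 0.37 and B2M at 0.14.

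Signalling lists held members on both sides of 0. MAPK output genes had a median of 0.30 over 17 genes, with ETV4 at 0.76, ETV1 at 0.72, SPRY4 and DUSP4 at 0.71 and DUSP5 at -0.79. Of these 17, 13 lay above 0, against 5951 of all 10707 named genes. Past the DMSO pair's limit 5 were higher and 1 lower, against 3.97% and 5.36% of all named genes. FOS was at 0.96, KLF9 at 0.93 and EGR1 at -0.11 among 23 immediate early genes, whose median was 0.17. Past that limit 4 of the 23 were higher and none was lower. In the TGF-beta and BMP list, with a median of 0.15, the pseudoreceptor gene BAMBI was at 1.26 and the activin antagonist gene FST at 0.82, while ID1, a direct BMP target, was at -0.57. The median of secreted and inflammatory factors was 0.12. Besides DKK1 and IL16 they included CCL2 at 0.71, and the only member 2-fold lower was TNFAIP6, a hyaluronan-binding protein gene. TNFAIP6 read 5.71 and 6.25 with DMSO and 4.59 on each C646 array, a 24 h difference of -1.66. Genes of the invasive state were found on both sides of 0 (median 0.11), with WNT5A at 0.72 and SNAI2 at 0.58 but ZEB1 at -0.47 and TWIST1 at -0.30.

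Genes of metabolism and stress moved little. Respiratory chain and ATP synthase genes lay above 0 in 27 of 29 cases, against 5951 of all 10707 named genes. Their median was 0.28, and COX5B alone passed the DMSO pair's limit at 0.73. Lysosomal genes had a median of 0.12, glycolysis genes 0.08, NRF2 targets 0.12, heat shock genes -0.06, cholesterol synthesis genes -0.13 and ribosome biogenesis genes -0.14. All members of the NRF2, heat shock and cholesterol lists lay inside the DMSO pair's limit, as did 9708 of all 10707 named genes. In the ribosome list NOP56 was 2-fold lower at -1.33, on a probe set numbered on another chromosome. The integrated stress response had a median of 0.10 with opposite members. DDIT3 (CHOP) was at 1.17 and PPP1R15A at 0.72, whereas MTHFD2, CHAC1 and PSAT1 were at -0.94, -0.88 and -0.56. MYC itself was at 0.42. The 14 reference genes had a median of 0.06, and none passed the DMSO pair's limit.

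Genes were also counted by kind. Of 329 named long noncoding RNA genes, 18 were at least 2-fold higher (5.47%) and 3 lower (0.912%). Of 10135 protein-coding genes, 77 were higher (0.76%) and 296 lower (2.92%). Of the 18 higher noncoding genes, 11 were also 2-fold above DMSO at 6 h. FAM169A-AS1 and PURPL, both among the 18, passed the level filter only through the array where they were high. Of all 102 higher named genes, 3 passed in this way. Over all 329 noncoding genes the median absolute difference between both DMSO arrays was 0.11, against 0.08 for protein-coding genes. Among protein-coding genes sorted by the length of the gene on the chromosome, 1.68% of the longest of 5 equal groups, over 90.6 kb, were 2-fold lower, against 2.52% to 3.9% in the other groups. By mean level, again in 5 groups, the share of 2-fold lower genes was 0.42% in the lowest group, 4.9% in the second highest and 4.62% in the highest. Mean levels in the lowest group ran only from 3.96 to 4.54, and how far this limits a fall was not tested.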

How the data were processed

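RNA of 4 WM35 cultures was measured on Affymetrix Human Exon 1.0 ST arrays, 1 per group. The authors' deposited table holds log2 expression values per gene-level probe set, already on a common scale. The steps of probe summary and normalization are not given in the sources used here. Per the submitters' processing notes, the build was hg19. Array number limits the precision, and depth does not apply.

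Differences were taken between arrays with Python 3.11.15, numpy 2.4.6 and pandas 2.3.3 and drawn with matplotlib 3.10.9, and the calculations were tested on simulated data. No p-value was computed. Rows below the 40th percentile of the mean were left out. Of the probe sets, 20429 had 1 symbol in the platform annotation, 4232 had several and 2970 had no symbol; 20356 symbols were updated through a GRCh38.p14 gene table. For several probe sets of a gene, the brightest among those numbered in a run with other genes of its own chromosome was used, and the brightest of any where there was none (153 of 10707 genes lie on a probe set numbered elsewhere).

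Named genes were the 20 highest and 20 lowest, the 5 highest and 5 lowest members of each of 55 lists, members at least 2-fold different, all members of lists of up to 15, and CREBBP. Small RNA genes and LOC symbols were left out. PTPRC and other markers are named as identity checks. The comparison, lists and rules were chosen with earlier results of these data known. Alternatives were other folds, filters, probe set choices, controls, centring and quantile normalization.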

Additional observations from a re-analysis of the deposited data

Results flagged for a closer look

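The C646 effect had opposite signs at 6 h and 24 h, beyond the DMSO pair's 95th percentile of 0.34 at both times, for 5 named genes. The difference between the times was not tested, since each rests on 1 array per group. The histone gene H3C2 was at 1.00 at 6 h and -2.82 at 24 h. The death receptor gene FAS, a p53 target, was at -0.46 and then 1.23. The BMP target ID1 was at 0.72 and then -0.57. CCN1, a matricellular protein gene, was at -0.53 and then 0.68, and TNFAIP3, an inhibitor of NF-kappaB signalling, at -0.56 and then 0.63.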

How the results depend on the processing

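Quantile normalization, centring each array on its median, and the mean of both DMSO arrays as control moved none of 53 list medians by more than the DMSO pair's SD of 0.17. Of 224 named genes at least 2-fold different, 2, 2 and 4 no longer were so under these settings. With a 1.5-fold threshold 822 rows were higher and 886 lower, with 3-fold 33 and 200, and with the DMSO pair's limit by level 746 and 853. Against each DMSO array, a setting chosen after seeing the data, 110 rows were higher. With the filter at the 60th percentile the medians were -1.15 for polymerases, -0.56 for the spindle checkpoint and APC/C, -1.99 for replication-dependent histones, -0.89 for histone chaperones, -1.74 for homologous recombination, -0.66 for the damage checkpoint and 0.41 for the invasive state. With no filter they were -1.20 for those histones and -1.002 for recombination. The brightest of all probe sets, and the mean of all probe sets, gave -1.21 for licensing, and the mean gave -0.84 for lamins and HMG proteins. The brightest probe set turned ORC6 to 0.15, and it is numbered on another chromosome. The cause of these shifts was not tested beyond the change of members or probe sets. No paired analysis was possible because the 24 h comparison has 1 array a group and the labels give no replicate numbers. With 1 array a group no array could be left out, and signal over background limits the genes below the level limit.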
